A study of Arabidopsis thaliana with 6 samples.

Results

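The group VII ERF factors of Arabidopsis thaliana are 5 transcription factors of the AP2/ERF family: ERF71 (HRE2, AT2G47520), ERF73 (HRE1, AT1G72360), RAP2.2 (AT3G14230), RAP2.12 (AT1G53910) and RAP2.3 (EBP, AT3G16770). They were taken by locus identifier, and all 5 were found among the 33602 loci of the deposited table. Their RNA was measured in whole seedlings, with 3 libraries from Col-0 (wild type) and 3 from the mutant line cfm6-1, labelled CFM6-/- and in the same Col-0 background. Both genotypes were grown to day 14 at 22 °C on half-strength MS medium with 1% sucrose, under 16 h of light and 8 h of dark. CFM6 is a CRM domain protein which the series title places in the splicing of a mitochondrial intron of nad5. cfm6-1 is 1 mutant line, and no complemented line or second allele was analysed here. The comparison asked how the RNA of each factor, and of the genes around it, differed between the genotypes.

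Group VII ERF proteins carry their oxygen sensor at the amino terminus. Methionine aminopeptidases expose a cysteine at position 2, plant cysteine oxidases (PCO) oxidize it when oxygen is present, arginyl transferases (ATE) add arginine, and the ubiquitin ligase PRT6 marks the protein for degradation. When oxygen or nitric oxide runs short the proteins persist and activate genes for fermentation and for low-oxygen survival. RAP2.2, RAP2.12 and RAP2.3 are known as constitutively transcribed members, while ERF71 and ERF73 are known as members whose own transcripts rise under low oxygen. RNA levels of these genes therefore say nothing about how much protein was present, which was not measured.

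The part of each gene that encodes this sensor is its coding start, shown here because it defines the group. The first 30 coding bases (RefSeq annotation, TAIR10.1, 5′ to 3′ on the coding strand) carry the cysteine codon in capitals:
ERF71: atgTGTgggggagctatcatttctgatttc
ERF73: atgTGCggaggagctgtaatttccgattac
RAP2.2: atgTGTggaggagctataatctccgatttc
RAP2.12: atgTGTggaggagctataatatccgatttc
RAP2.3: atgTGTggcggtgctattatttccgattat
All of the members have the same base at 21 of the 30 positions, and 4 of them use the same cysteine codon while ERF73 uses the other one. Of 27444 nuclear protein-coding genes, 290 (1.06%) have a coding isoform that opens with methionine and cysteine. Only 5 have one whose first codons stand for methionine, cysteine, glycine, glycine and alanine, and these 5 are the group VII ERF genes. ERF73 has 3 annotated coding isoforms, and 2 of them hold the Met-Cys start. The deposited table holds 1 value per locus, so these isoforms were not separated.

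The genes lie apart in the genome (TAIR10.1). ERF71 is at chr2:19502776-19503702 on the minus strand, ERF73 at chr1:27241696-27242968 and RAP2.12 at chr1:20134844-20137013 on the plus strand. RAP2.2 is at chr3:4737120-4739298 on the minus strand and RAP2.3 at chr3:5705541-5707084 on the plus strand. Their coding sequences range from 516 bases in ERF71 to 1140 in RAP2.2. RAP2.2 and RAP2.12 were the closest pair, with 77.1% identical bases over 1050 aligned positions, and the other pairs had 59.1% to 71.0%. The multiply mapped share deposited for each locus was 0 for 4 of the genes and 0.0444 for RAP2.12, so few of their reads were shared with other loci.

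Depth read from the values was 47.3 to 52.7 M reads per library (M stands for 1e6). Levels are given in RPKM, the reads of a locus divided by its model length in kilobases and by the M reads of its library. The targeted locus CFM6 (AT4G13070) had 3.69 to 4.10 RPKM in the wild type libraries and 1.23 to 1.32 RPKM in the cfm6-1 libraries, which matches the genotype labels. Differences were tested with limma on log2(RPKM + 1) over the 20047 loci that reached 1 RPKM in at least 3 libraries, and a difference was called at a Benjamini-Hochberg adjusted p below 0.05. This rule called 68.8% of the tested genes, 38.6% as higher in cfm6-1 and 30.2% as lower. The libraries of the genotypes did not overlap in 74.3% of them, with cfm6-1 above in 41.5% and below in 32.8%. A call is therefore common in this comparison, and the sizes below matter more than the number of calls. The p-values measure the spread between libraries that the labels call biological replicates.

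Among the group VII ERF genes 3 were higher in cfm6-1, 1 was lower and 1 was not called. The libraries of the genotypes did not overlap for any of the 5, with cfm6-1 above in 3 and below in 2. With so many genes called, these counts say little about the group. The members differed widely in size and direction, from the steep rise of ERF71 to the fall of ERF73. All 5 were tested, but ERF71 was below 1 RPKM in all wild type libraries and passed the filter only through cfm6-1, so it had to differ.

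ERF71, a low-oxygen inducible activator of fermentation genes, measured 0.41, 0.29 and 0.66 RPKM in the wild type libraries (replicates 1, 2, 3). The cfm6-1 libraries gave 30.37, 30.52 and 32.62 RPKM in the same order of replicates. Every cfm6-1 library lay far above every wild type library, and the cfm6-1 libraries were close to each other. The wild type values stand for 14, 10 and 23 reads, rebuilt from RPKM, length and depth, against 983, 1093 and 1177 reads in cfm6-1. Mean levels were 0.45 ± 0.19 and 31.2 ± 1.26 RPKM (SD, n = 3), a 68.8-fold difference. ERF71 rose by 4.48 (SE 0.10) in log2(RPKM + 1), a scale on which changes of low genes come out too small. Its limma adjusted p was 5.38e-07, which is no separate evidence, since ERF71 passed the filter only through cfm6-1. The rise was the 16th largest of all tested genes. With a pseudocount of 0.1 in place of 1 the log2 change was 5.87, and it was 6.14 in limma-voom on the rebuilt reads. Among tested genes ERF71 stood at the 0.9th percentile in wild type and at the 78.4th in cfm6-1. Its low place in wild type follows from the filter, which leaves out loci this low unless their cfm6-1 values are higher.

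ERF73, the other inducible member, moved in the other direction. It measured 11.77, 11.93 and 12.61 RPKM in the wild type libraries (replicates 1, 2, 3) and 6.06, 6.58 and 6.39 RPKM in the cfm6-1 libraries. The groups were separated by more than the range within either of them. Its mean fell to 52.4% of wild type, with a log2 change of -0.84 (SE 0.05, limma adjusted p = 1.69e-05). At its 3′ end in the RefSeq annotation ERF73 shares 124 bases with AT1G72370 (P40), a ribosomal protein gene on the opposite strand, and whether counting used strand is not given in the sources used here. The deposited gene model length of 1.021 kb equals the joint exons of 2 of its transcripts, chr1:27241807-27242827, which end 17 bases before AT1G72370. For no other member did the deposited length equal the joint exons of any set of RefSeq transcripts. The match in ERF73 therefore does not show which bases were counted. AT1G72370 itself averaged 264.6 ± 16.4 RPKM in the wild type and rose to 376.8 ± 14.8 RPKM in cfm6-1 (SD, n = 3, limma adjusted p = 0.000314), the opposite direction to ERF73.

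The order of both inducible genes differed between the genotypes. The ratio of ERF71 to ERF73 RPKM was 0.0348, 0.0243 and 0.0523 in the wild type libraries (replicates 1, 2, 3) and 5.01, 4.64 and 5.11 in the cfm6-1 libraries. ERF73 was the more abundant in every wild type library and ERF71 in every cfm6-1 library. On the log2(RPKM + 1) scale the difference between the genes moved by 5.31 between genotypes (exact permutation test, two-sided, p = 0.1, which is the lowest value possible with 3 libraries each). This difference repeats the changes of both genes given above, and the test could not reach the threshold.

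**Figure D1:**
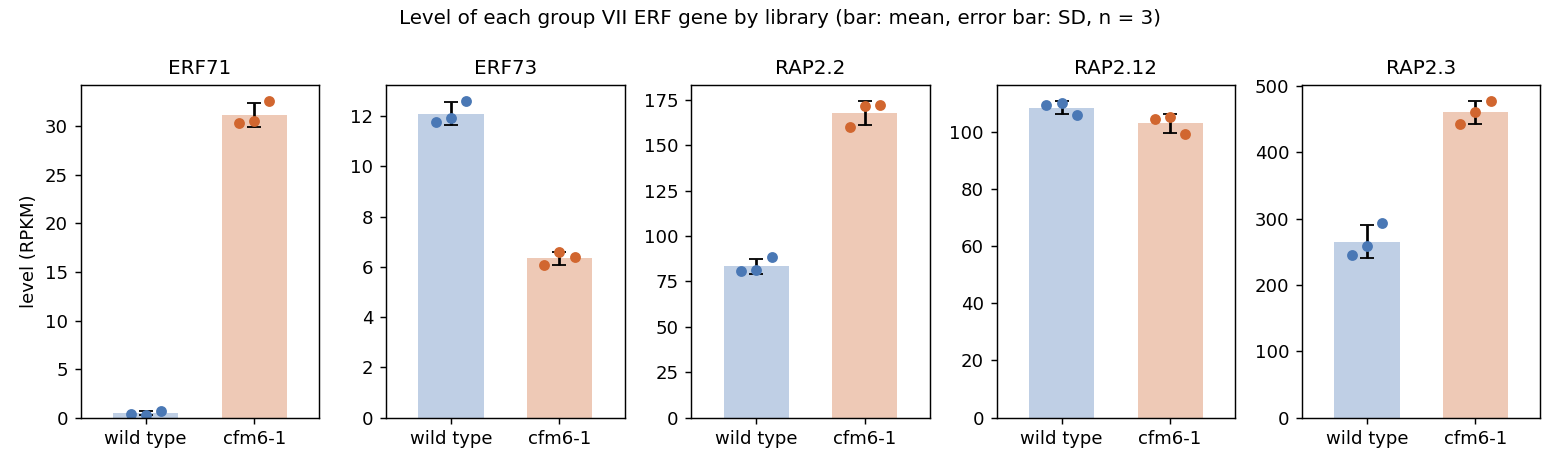
Level (RPKM, linear axes from 0, a separate scale for each gene) of the group VII ERF genes, with points for libraries, bars for means and error bars for SD (n = 3). ERF71 went from 0.45 to 31.2 RPKM, ERF73 from 12.1 to 6.34, RAP2.2 from 83.5 to 168, RAP2.12 from 108 to 103 and RAP2.3 from 265 to 460.

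The constitutive members were already among the more abundant transcripts in wild type, and RAP2.2 and RAP2.3 rose further. RAP2.2, an activator of low-oxygen genes that also takes part in ethylene responses, measured 80.55, 81.58 and 88.25 RPKM in the wild type libraries (replicates 1, 2, 3). The cfm6-1 libraries gave 160.27, 171.43 and 171.96 RPKM in the same order of replicates. All cfm6-1 values were above the wild type values, and the mean rose 2.01-fold (log2 change 1.00, SE 0.06, limma adjusted p = 9.74e-06).

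RAP2.3, which binds DELLA growth repressors as well as the promoters of low-oxygen genes, was the most abundant member in every library. It measured 244.63, 258.89 and 292.53 RPKM in the wild type libraries (replicates 1, 2, 3) and 441.66, 460.60 and 476.92 RPKM in the cfm6-1 libraries. Wild type replicate 3 was the highest of its group, and it still lay well below the cfm6-1 libraries. The mean rose 1.73-fold (log2 change 0.79, SE 0.08, limma adjusted p = 9.31e-05). AT3G16760, which ends 46 bases upstream of RAP2.3 on the same strand, was at 20.05 ± 0.51 and 21.2 ± 0.23 RPKM in wild type and cfm6-1 (SD, n = 3) and was not called (limma adjusted p = 0.140). AT3G16780, which lies 1741 bases downstream on the same strand, rose 1.88-fold. It went from 45.5 ± 3.86 to 85.5 ± 4.62 RPKM (SD, n = 3, limma adjusted p = 4.06e-05).

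RAP2.12, which is held at membranes by acyl-CoA binding proteins while oxygen is present, had nearly the same level in both genotypes. It measured 109.48, 110.09 and 105.69 RPKM in the wild type libraries (replicates 1, 2, 3) and 104.37, 105.29 and 99.07 RPKM in the cfm6-1 libraries. The groups did not overlap, but the highest cfm6-1 library was within 1 RPKM of the lowest wild type library. The mean was 94.9% of wild type, and the difference was not called (log2 change -0.07, SE 0.05, limma adjusted p = 0.178). The call depends on the scaling between libraries, since RAP2.12 was lower at an adjusted p of 0.0266 with median-of-ratios scaling (log2 change -0.13) and of 0.0131 with quantile normalization (log2 change -0.18). The authors' deposited table gives RAP2.12 a log2 fold change of -0.12 with an adjusted p of 0.0514.

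In the authors' deposited table the other members have log2 fold changes of 6.01 for ERF71, -0.98 for ERF73, 0.96 for RAP2.2 and 0.75 for RAP2.3. The adjusted p-values of that table are 0.0117, 0.00842, 0.00738 and 0.0125 in the same order. That table compares columns under codes, and its sign was that of the ratio of mean RPKM in 11423 of 11424 loci. These were the tested loci above 1 RPKM in every library that have a deposited log2 fold change, so ERF71 is not among them. For ERF71, ERF73, RAP2.2 and RAP2.3, directions and calls were the same as here.

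**Figure D2:**
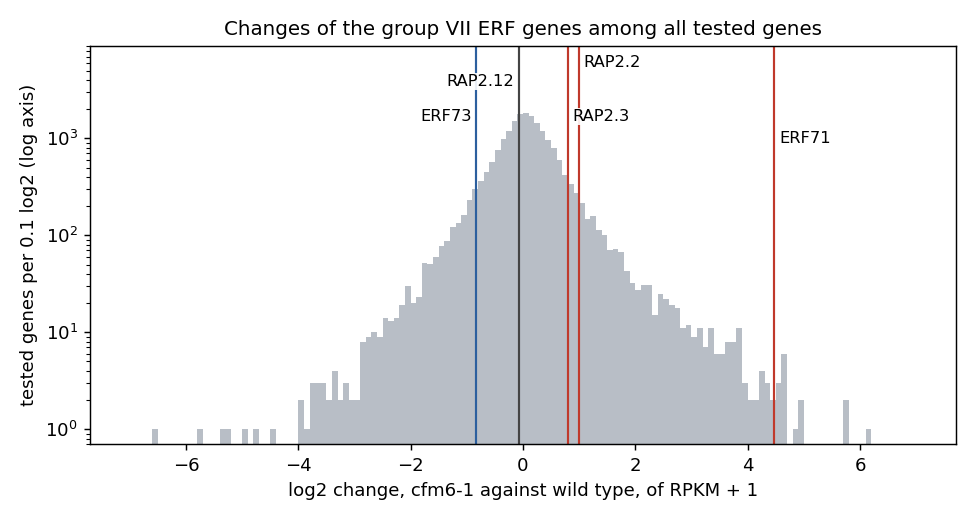
Number of tested genes (log axis) by log2 change of RPKM + 1 between cfm6-1 and wild type, in steps of 0.1, with a line for each group VII ERF gene (red: higher, blue: lower, dark grey: not called). ERF71 at 4.48 stands in the far right tail, RAP2.2 at 1.00 and RAP2.3 at 0.79 on the right shoulder, ERF73 at -0.84 on the left shoulder and RAP2.12 at -0.07 near the centre.

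These changes altered the order of the members. In wild type the levels per length rose from ERF71 through ERF73, RAP2.2 and RAP2.12 to RAP2.3, with means of 0.45, 12.1, 83.5, 108 and 265 RPKM. In cfm6-1 the order was ERF73, ERF71, RAP2.12, RAP2.2 and RAP2.3, with means of 6.34, 31.2, 103, 168 and 460 RPKM. In both genotypes no library of one gene overlapped with the libraries of its neighbour in the order. The narrowest step in wild type was from RAP2.2 to RAP2.12 (1.30-fold), and in cfm6-1 it was the reverse step from RAP2.12 to RAP2.2 (1.63-fold). The RPKM ratio of RAP2.2 to RAP2.12 was 0.736, 0.741 and 0.835 in the wild type libraries (replicates 1, 2, 3) and 1.54, 1.63 and 1.74 in the cfm6-1 libraries.

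The summed level of the 5 genes was 446.84, 462.78 and 499.74 RPKM in the wild type libraries (replicates 1, 2, 3) and 742.73, 774.42 and 786.96 RPKM in the cfm6-1 libraries. The mean sum was 1.64-fold higher in cfm6-1. RAP2.3 held the largest share in both, with 56.4 ± 1.94% in wild type and 59.8 ± 0.65% in cfm6-1 (SD, n = 3). RAP2.12 held 23.1 ± 1.77% and 13.4 ± 0.75%, and RAP2.2 17.8 ± 0.22% and 21.9 ± 0.28%. ERF71 held 0.095 ± 0.035% and 4.06 ± 0.11%, and ERF73 2.58 ± 0.06% and 0.826 ± 0.021%. Most of the added RNA therefore came from RAP2.3 and RAP2.2, and ERF71 stayed a minor part of the sum despite its large fold change.

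**Figure D3:**
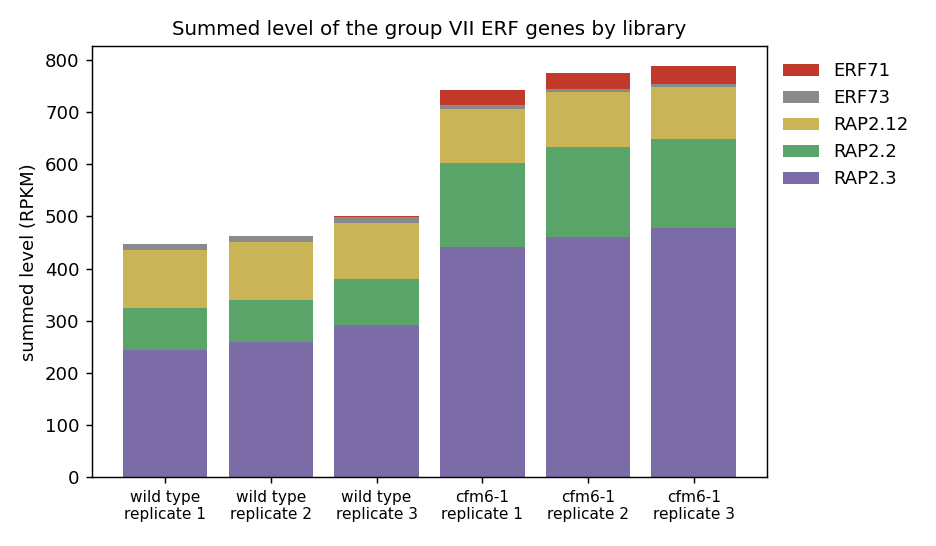
Summed level (RPKM, axis from 0) of the group VII ERF genes in each library, divided by gene. The sums are 446.84 to 499.74 RPKM in wild type and 742.73 to 786.96 RPKM in cfm6-1, and the ERF71 segment is visible only in cfm6-1.

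Replicates of one genotype were close for most members. The coefficient of variation was 2.199% to 9.27% in wild type for the members other than ERF71, and 3.26% to 4.15% in cfm6-1 for all members. ERF71 in wild type had 41.6%, at 10 to 23 reads per library.

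Genes with profiles most like each member across the 6 libraries were found by the root mean square difference of log2(RPKM + 1), each centred on its own mean, among loci with a multiply mapped share of at most 0.1. The profiles follow mainly the difference between genotypes. Nearest to ERF71 were NDB4, one of the mitochondrial alternative NAD(P)H dehydrogenases (difference 0.178), AT5G09570 (0.186) and NAC044, a NAC transcription factor (0.188). Nearest to ERF73 were AT1G74840 (0.032), AT3G12150 (0.035) and VTE5, a phytol kinase of vitamin E synthesis (0.043). Nearest to RAP2.2 were AT5G15550 (0.016), AT2G19385 (0.022) and AT1G15420 (0.022), and nearest to RAP2.3 were AT5G53920 (0.024), AT5G67630 (0.037) and AT2G46160 (0.038). Nearest to RAP2.12 were ERD2B (0.012), AT4G21720 (0.013) and AT1G51160 (0.015), none of which was called as deposited, while quantile normalization called all 3 lower. ERF71 had no neighbour as close as those of the other members, but the difference is not scaled to the size of a change. NDB4, like ERF71, was below 1 RPKM in all wild type libraries and passed the filter only through cfm6-1.

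Genes for the enzymes that read and degrade the group VII ERF proteins were called in both directions. Of 12 genes for oxygen sensing and the N-degron pathway, 6 were higher, 4 lower and 2 not called, with a median log2 change of 0.16 against 0.05 over all tested genes. The shares, 50% higher and 33.3% lower, are close to the 38.6% and 30.2% of all tested genes. The largest changes were in PCO1 and PCO2, the cysteine oxidases whose genes are themselves induced by low oxygen. PCO1 measured 3.10, 3.82 and 3.41 RPKM in the wild type libraries (replicates 1, 2, 3) and 9.24, 12.37 and 11.07 RPKM in the cfm6-1 libraries, a 3.16-fold rise (log2 change 1.42, limma adjusted p = 3.41e-05). PCO2 measured 1.32, 2.05 and 2.00 RPKM in the wild type libraries (replicates 1, 2, 3) and 8.21, 10.88 and 9.63 RPKM in the cfm6-1 libraries, a 5.35-fold rise (log2 change 1.93, limma adjusted p = 2.32e-05). For both genes the cfm6-1 libraries lay above all wild type libraries.

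The cysteine oxidases known as constitutive changed little. PCO5 rose 1.28-fold, from 22.7 ± 0.85 to 29.1 ± 0.71 RPKM (SD, n = 3, limma adjusted p = 0.000454), and PCO3 fell to 77.3% of wild type (limma adjusted p = 0.00168). PCO4 was at 10.6 ± 0.59 and 10.5 ± 0.07 RPKM and was not called (limma adjusted p = 0.867). The arginyl transferase genes moved apart: ATE2 rose 1.34-fold (limma adjusted p = 0.000930) and ATE1 fell to 87.9% (limma adjusted p = 0.0150). PRT6, the ubiquitin ligase, fell to 87.1% (limma adjusted p = 0.0190), and BIG, a large protein that acts with PRT6, rose 1.18-fold (limma adjusted p = 0.0210). These last calls were lost when single libraries were left out: ATE1 without wild type replicate 3 or cfm6-1 replicate 1 (adjusted p up to 0.0549), and PRT6 without wild type replicate 2 or cfm6-1 replicate 1 or 2 (up to 0.0656). BIG lost its call without wild type replicate 2 or 3 or cfm6-1 replicate 1 or 3 (up to 0.068). The call of BIG was also lost with median-of-ratios scaling (adjusted p = 0.0739) and quantile normalization (adjusted p = 0.1). Without cfm6-1 replicate 1 the list held 2 lower genes rather than 4. Among the methionine aminopeptidases MAP1A rose 1.19-fold (limma adjusted p = 0.00474), MAP2A fell to 75.8% (limma adjusted p = 0.00200) and MAP2B was not called (limma adjusted p = 0.144), though it was higher without cfm6-1 replicate 1 (adjusted p = 0.0269).

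Of 9 genes for binding partners of the group VII ERF factors and for other substrates of the same degradation route, 3 were higher, 3 lower and 3 not called, with a median log2 change of -0.08. At 33.3% in each direction these shares are near the 38.6% higher and 30.2% lower among all tested genes. HRA1, a trihelix factor that restrains RAP2.12, measured 2.60, 3.28 and 3.66 RPKM in the wild type libraries (replicates 1, 2, 3) and 9.16, 9.27 and 6.94 RPKM in the cfm6-1 libraries. It rose 2.66-fold, with no overlap (log2 change 1.18, limma adjusted p = 0.000183). ACBP1 and ACBP2, the acyl-CoA binding proteins that tether RAP2.12, differed in their calls, with ACBP2 down to 83.1% (limma adjusted p = 0.00543) and ACBP1 not called (limma adjusted p = 0.789). The DELLA genes GAI and RGA, whose proteins bind RAP2.3, fell. GAI went from 22.0 ± 0.48 to 9.66 ± 1.24 RPKM (SD, n = 3, limma adjusted p = 3.34e-05) and RGA from 40.6 ± 0.98 to 29.5 ± 1.19 RPKM (limma adjusted p = 0.000136). ZPR2 and VRN2, other proteins with a regulated Met-Cys start, rose 2.75-fold (limma adjusted p = 0.000308) and 1.14-fold (limma adjusted p = 0.0115). The wild type libraries of ZPR2 gave only 0.97, 1.18 and 1.51 RPKM (replicates 1, 2, 3), near the filter, so its fold is uncertain. The call of VRN2 was lost with quantile normalization (adjusted p = 0.0851). SINAT2, a ubiquitin ligase that binds RAP2.2, and BRM, a chromatin remodeller that binds group VII ERF proteins, were not called (limma adjusted p = 0.205 and 0.0912). Both were lower with median-of-ratios scaling and with quantile normalization, where the list held 5 lower genes.

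Genes of the low-oxygen response, among them known targets of the group VII ERF proteins, were mostly higher, with exceptions. Of 31 genes in the list 30 were tested, and 20 were higher, 6 lower and 4 not called. This is 66.7% higher and 20% lower, against 38.6% and 30.2% of all tested genes, and the median log2 change was 0.48 against 0.05. The list was drawn up with earlier results of these data known. AT5G10040 was at or below 0.18 RPKM in all libraries and was not tested.

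HB1, a haemoglobin that removes nitric oxide, measured 9.98, 13.79 and 14.56 RPKM in the wild type libraries (replicates 1, 2, 3) and 93.68, 105.64 and 100.26 RPKM in the cfm6-1 libraries. PDC1, a pyruvate decarboxylase of ethanol fermentation, measured 2.45, 2.80 and 1.97 RPKM in the wild type libraries (replicates 1, 2, 3) and 12.38, 17.21 and 17.85 RPKM in the cfm6-1 libraries. The genotypes were far apart for both genes, with 7.82-fold and 6.57-fold rises (limma adjusted p = 5.07e-06 and 1.74e-05). AT4G24110, a gene of unknown function induced by low oxygen, rose 10.9-fold and AT3G27220 2.76-fold (limma adjusted p = 1.07e-05 and 1.65e-05). CML38, a calmodulin-like protein of low-oxygen granules, rose 12.3-fold (limma adjusted p = 1.62e-05). SRO5 rose 38.7-fold (limma adjusted p = 4.52e-06), but up to 0.294 of its reads were multiply mapped, so its level is uncertain. Its wild type libraries gave only 0.83, 1.33 and 0.97 RPKM (replicates 1, 2, 3), near the filter, so the fold is uncertain too.

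The 6 lower genes of this list were SUS4, AT4G27450, RGAT1, UKL3, ACHT5 and AT5G66985. SUS4, a sucrose synthase, measured 2.41, 2.2 and 1.67 RPKM in the wild type libraries (replicates 1, 2, 3) and 0.97, 1.2 and 1.08 RPKM in the cfm6-1 libraries. It fell to 51.75% of wild type (limma adjusted p = 0.00231), whereas SUS1, the other sucrose synthase of the list, was not called. AT4G27450 went from 182.7 ± 20.3 to 76.2 ± 8.44 RPKM (SD, n = 3, limma adjusted p = 5.40e-05) and RGAT1 from 54.1 ± 8.40 to 22.3 ± 2.64 RPKM (limma adjusted p = 0.000126). UKL3, a uridine kinase-like protein, fell to 61.8%, ACHT5, a thioredoxin, to 55.6% and AT5G66985 to 51.4% (limma adjusted p up to 0.00603). These genes are known to rise under low oxygen, and here they moved opposite to HB1 and PDC1.

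**Figure D4:**
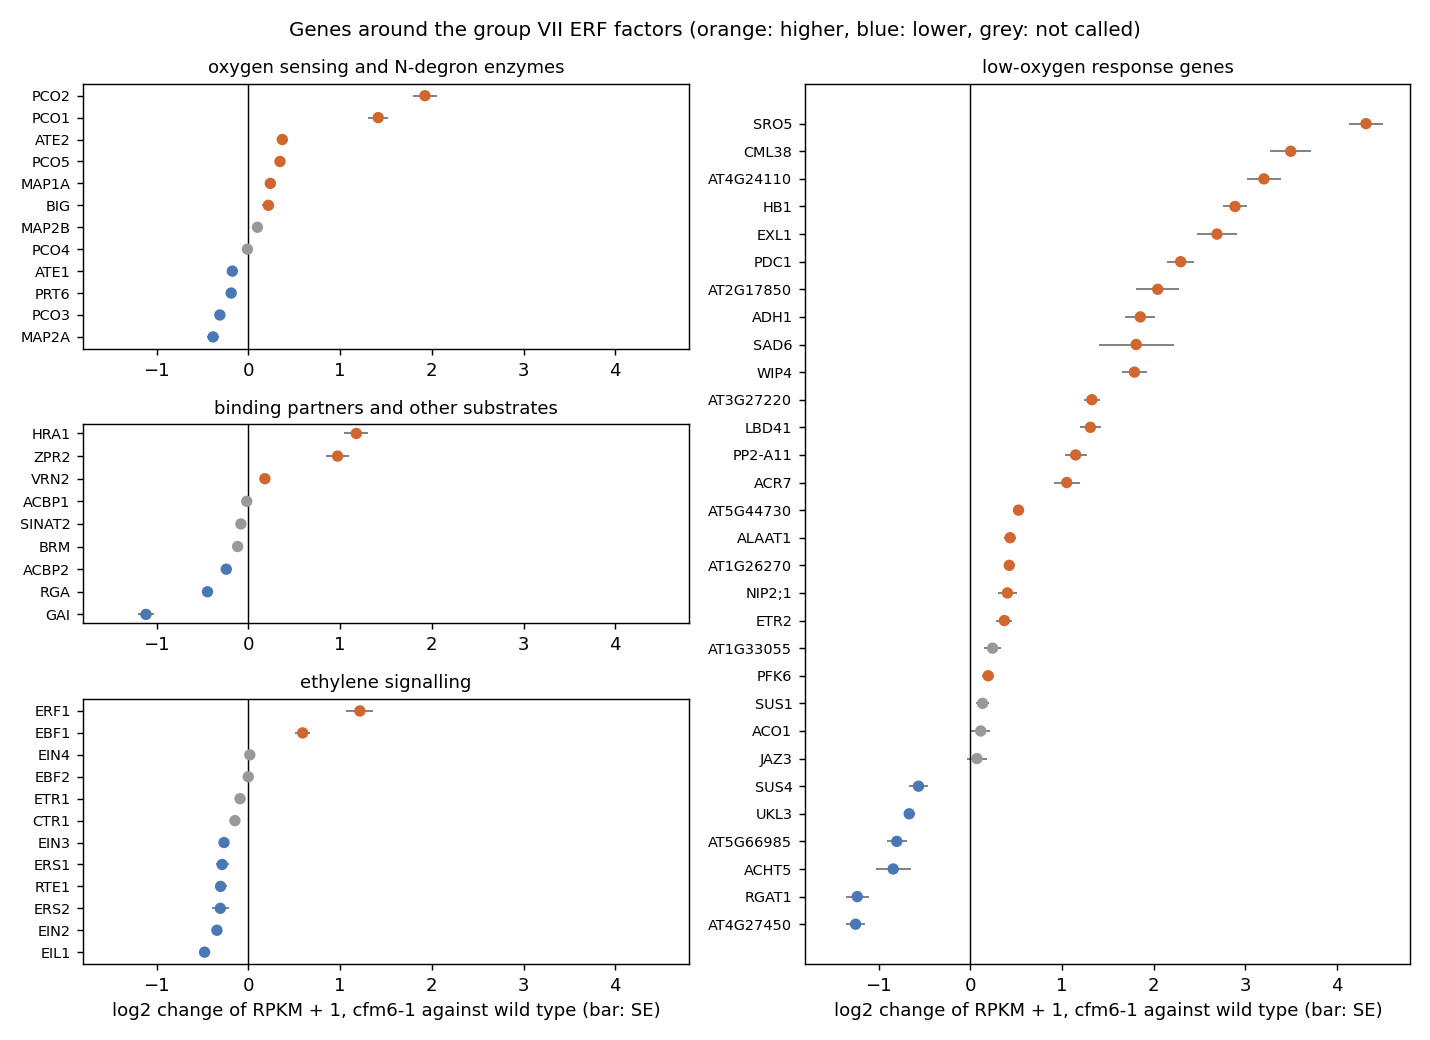
Log2 change of RPKM + 1 (points, with SE) of the tested genes in 4 lists around the group VII ERF factors (orange: higher in cfm6-1, blue: lower, grey: not called). The low-oxygen list has 20 genes called higher, reaching 4.32 in SRO5, and 6 called lower, while the ethylene list has 6 called lower and 2 called higher.

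A promoter element through which group VII ERF proteins are known to activate genes was searched on both strands, as AAACCA followed by 3 bases of any kind and GC, in the 1000 bases upstream of each annotated gene start. It was present upstream of 937 of 27444 protein-coding genes (3.41%) and of 6 of the 31 low-oxygen genes (19.4%). It was also present upstream of 1 of the 9 partners and substrates, ACBP1, which was not called, and of 0 of the 12 oxygen sensing genes and 0 of the 12 ethylene genes. The element was first described in promoters of genes of this kind, so the share is not independent evidence. Sites are shown for 5 of the low-oxygen genes, all of which were higher in cfm6-1. SRO5 and CML38, which had the largest rises of the list, had no such site in their 1000 bases. The list as a whole had 66.7% of its tested genes higher, and 38.6% of all tested genes were higher. Whether the element is tied to the rises was not tested. The sites, with 5 flanking bases on each side and the fixed letters in capitals, are:
ADH1: gcccgAAACCAaaaGCattcg
PDC1: ccccaAAACCAtctGCatctc
NIP2;1: ctccaAAACCAtctGCtgcaa
AT4G24110: acccaAAACCAgcaGCtcaag
WIP4, distal: tctcaAAACCAggtGCacatg
WIP4, proximal: aaccaAAACCAacgGCcacag
All of these sites lie on the coding strand of their gene. The ADH1 site is at chr1:28975089-28975099 on the plus strand, at -166 to -156 from the gene start. The PDC1 site is at chr4:15955350-15955360 on the minus strand, and the AT4G24110 site at chr4:12521579-12521589 on the minus strand. The WIP4 sites are at chr4:6374504-6374514 and chr4:6374634-6374644 on the plus strand. The NIP2;1 site at chr2:14516078-14516088 on the minus strand lies inside the neighbouring locus AT2G34400.

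ADH1, the alcohol dehydrogenase of fermentation, measured 8.60, 10.79 and 14.55 RPKM in the wild type libraries (replicates 1, 2, 3) and 40.03, 46.82 and 41.41 RPKM in the cfm6-1 libraries. No wild type library reached the cfm6-1 range, and the rise was 3.78-fold (limma adjusted p = 6.19e-05). WIP4 rose 4.26-fold with a multiply mapped share of 0.116, and NIP2;1 rose 1.71-fold (limma adjusted p = 2.94e-05 and 0.0121). ADH1, WIP4 and NIP2;1 were chosen after their values were seen, as genes that carry the element. NIP2;1 was below 1 RPKM in some wild type libraries.

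None of the 5 group VII ERF genes had this element in its own 1000 bases, nor the motif CTTG, 5 bases of any kind, CA, 1 base of any kind and G, known from genes that respond to mitochondrial dysfunction and present upstream of 7.60% of genes. The GCC box GCCGCC, a binding sequence of many ERF proteins found upstream of 8.44% of genes, occurred only before ERF71, on the opposite strand at -538 to -533 from the start. That position lies inside the neighbouring locus AT2G47530 (chr2:19504171-19505048). Both strands were searched, and no match was found for any of these motifs in the 250 bases next to the 5 starts.

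Ethylene, which acts upstream of RAP2.2 and of group VII ERF stability, was represented by 12 signalling genes. Of these 2 were higher, 6 lower and 4 not called, with a median log2 change of -0.21. The shares are 16.7% higher and 50% lower, against 38.6% and 30.2% of all tested genes. EIN3 and EIL1, the transcription factors at the end of the pathway, fell to 83.0% and 71.0% of wild type (limma adjusted p = 0.00207 and 0.000267), and EIN2, the membrane protein above them, to 78.1% (limma adjusted p = 0.000304). EBF1, an F-box protein that removes EIN3, rose 1.52-fold (limma adjusted p = 0.000570). ERF1, a direct EIN3 target, measured 0.75, 1.65 and 1.13 RPKM in the wild type libraries (replicates 1, 2, 3) and 3.58, 4.25 and 4.14 RPKM in the cfm6-1 libraries. It rose 3.39-fold (limma adjusted p = 0.000281). The receptor genes ERS1 and ERS2 fell to 81.4% and 76.6% (limma adjusted p = 0.00938 and 0.0231), and RTE1, which acts on the receptor ETR1, to 79.2% (limma adjusted p = 0.00465). The call of ERS2 was lost without any one of 4 libraries, wild type replicates 2 and 3 and cfm6-1 replicates 1 and 2 (adjusted p up to 0.0776). ETR1, EIN4, CTR1 and EBF2 were not called (limma adjusted p from 0.0544 to 0.979), and EBF2 is uncertain with a multiply mapped share of 0.179. ETR1 and CTR1 were lower with median-of-ratios scaling (adjusted p = 0.0199 and 0.0146) and with quantile normalization, and CTR1 also without wild type replicate 1 (adjusted p = 0.0186).

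The libraries come from whole seedlings, so marker genes of their tissues are given here. In whole seedlings, fewer cells of a type and less RNA per cell cannot be told apart. All 6 leaf markers fell (median log2 change -0.75), where 30.2% of all tested genes were lower and 38.6% higher, and their summed level was 21954.94 to 25389.34 RPKM in wild type and 14667.72 to 15813.55 RPKM in cfm6-1. Of 10 root markers 2 rose, 4 fell and 4 were not called (median -0.11), which is 20% and 40% and gives no common direction. Their summed level of 1711.08 to 1926.11 RPKM in wild type and 2305.50 to 2737.62 RPKM in cfm6-1 came mostly from PYK10, named here after its values were seen. No seed and embryo marker of 8 passed the filter, LEC1 was at 0 in every library, and CRC, OLEO1 and OLEO2 were at 0 in all wild type libraries. Their summed level was at most 0.26 RPKM in wild type and at most 1.79 in cfm6-1, the latter in 1 library. Of 4 floral organ markers 2 were tested and none was called (limma adjusted p = 0.238 and 0.392). The part of tissue composition in the changes of the group VII ERF genes was not tested.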

How the data were processed

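Levels are RPKM as the authors deposited them, with 2 decimals and a column for each library. The unit was read from the values, and each column was tied to its sample by title. Reads were 100 bp single-end, per the labels' protocols, and the build is TAIR10, per the submitters' processing notes. For the aligner, the counter and the annotation the sources used here give nothing. A deposited fraction from 0 to 1 is, by its name, the largest multiply mapped share of a locus. A second table deposited by the authors gives model length, p-values, adjusted p-values and log2 fold changes. Its 6 per-library columns, and a table of mapping totals, carry codes found in no label, and were not used.

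Depth came from whole-read steps in loci under 0.3 kb, where 100% of values lay within 0.1 of a whole read in each library. Replicates of a genotype differed by more than sampling noise (chi-square per degree of freedom 10.5 to 25.1).

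limma 3.58.1 in R 4.3.3 fitted genotype to log2(RPKM + 1) with a mean-variance trend over all loci reaching 1 RPKM in 3 or more libraries. The fit was also run on simulated data in which few genes changed, all of them upward. Most tested genes were called here, in both directions, so that run does not test the calls of this comparison. Folds and percentages are ratios of mean RPKM. Sequences, chromosomes and names come from the RefSeq annotation of TAIR10.1. The files give no coordinates, so only this reference was used for positions. The members and lists were chosen with earlier results of these data known. Named were all members, all genes of pathway lists of up to 12, in the longer pathway list up to 6 genes per direction by adjusted p, and markers at 0. Genes named outside this rule are marked as such or stand as uncalled or untested exceptions. No set test was run. One element site of the low-oxygen list is not reported here.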

Additional observations from a re-analysis of the deposited data

How the results depend on the processing

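The calls of ERF73, RAP2.2, RAP2.3 and the targeted locus kept their direction and stayed past the threshold under every alternative that gave a value. The alternatives were another pseudocount, filter, scaling, block or test, nuclear loci alone, and 1 library fewer. ERF71 did the same, but where a filter was used it passed only through cfm6-1, so its kept call adds no evidence. RAP2.12 became lower with median-of-ratios scaling (-0.13, adjusted p = 0.0266) and quantile normalization (-0.18, adjusted p = 0.0131), which made 2 members lower rather than 1. These scalings shifted the median change of all genes by -0.052 and -0.077, and gave 5 lower genes among partners and substrates. ERF71 fails the filter when a cfm6-1 library is left out. With the filter in 2 libraries, chosen after seeing the data, its change stayed between 4.44 and 4.49.

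With a filter at 10 RPKM, which tests 11532 genes, 4812 genes were higher and 3696 lower, with 3 higher genes in the oxygen sensing list, 1 among partners and 1 in ethylene signalling; the targeted locus was not tested there. Leaving out single libraries gave 2 to 4 lower genes in the oxygen sensing list. Changes of genes that were not called reversed in a few cases. EIN4 was at -0.037 with median-of-ratios scaling, -0.068 with quantile normalization and -0.013 to 0.041 without single libraries. EBF2 was at 0.00418 on nuclear loci alone, 0.00431 in limma-voom and -0.042 to 0.037 without single libraries. Without single libraries PCO4 ranged from -0.052 to 0.022 and ACBP1 from -0.048 to 0.016.

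Taken over all tested genes, same-numbered libraries did not deviate together (correlations 0.032, -0.138 and -0.002). This does not settle whether single genes share variation by replicate number. With the replicate number as a block, ERF71 changed by 4.48 (adjusted p = 1.71e-05), ERF73 by -0.84, RAP2.2 by 1.00, RAP2.12 by -0.07 (adjusted p = 0.193) and RAP2.3 by 0.79. The block lowered the SE of RAP2.3 from 0.077 to 0.057 and that of ERF71 from 0.096 to 0.075. It raised the SE of ERF73 from 0.054 to 0.057. No call of a group VII ERF gene changed.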
